A study of Arabidopsis thaliana with 18 samples.

Results

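Heart-stage embryos of Arabidopsis thaliana, the thale cress, were compared with 32-cell embryos, 3 libraries against 3, over every gene that reached 1 TPM in at least 3 of these 6 libraries. That was 16901 of the 27564 genes in the deposited table. The series held 18 libraries of 6 stages, and the 3 globular libraries, of the stage between the 2, are given as levels beside the comparison and entered no test. Per the labels, hand-dissected embryos came from plants kept at 22 °C under 16 h light and 8 h dark, and no mutation, transgene or treatment is given for any of the groups in these labels. The labels number the replicates of each stage 1 to 3 and do not say that they came from separate plants, so p-values measure the spread between these libraries, which may be technical. TPM (transcripts per 1e6) gives each gene as a share of its library's transcripts, so a level here is a share, and the sequencing depth behind it is unknown.

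Between these stages the plant embryo turns from a ball of cells with an outer protoderm into a body with an axis. The shoot meristem is set aside at the top, the root meristem at the base, and a pair of cotyledons grows out from the flanks, with an upper (adaxial) and a lower (abaxial) side. Embryo plastids also begin to green at about the heart stage, ahead of the maturation phase in which storage protein and oil are laid down.

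A gene was called where its adjusted p was under 0.05 in limma's moderated test. Changes are given as log2 of TPM + 1, heart minus 32-cell, ± SE with 3 libraries per stage, a scale that understates the change of low genes. Of the genes tested, 3514 were higher in heart, or 20.8%, and 1225 were lower, or 7.25%. At least 2-fold apart were 1150 of the higher and 858 of the lower genes, and at least 16-fold apart were 45 and 28. The median change of all genes tested was 0.25, and with libraries scaled by the median of ratios it was 0.02. That scaling called 1635 genes higher, or 9.67%, and 1885 lower, or 11.2%, so the share of calls that were higher moved from 74.2% to 46.4%. All 1635 were also higher in the unscaled test, all 1225 lower genes stayed lower, and 0 genes changed direction. Counts of list members are therefore given under both scalings, to be read beside these shares over all genes. The lists were chosen with earlier results of these data known, so their counts are a description. A gene that reached 1 TPM in 1 stage alone had to differ. Of the tested genes, 228 reached it in all heart and no 32-cell libraries, and 245 the reverse. Counts of list members include genes that passed through 1 stage alone. Among the genes named below BLR, LSH4, JAG, TCP2, TMO7, PIN6, OLEO2, BGLU28, LSU1, CYSD2, BCAT-1 and ATCG00600 were tested through heart alone, and YUC9, OFP14, RALFL18, TI1 and CYP81D2 through 32-cell alone, so their values are a description and are given without a p. The count of higher genes fell to 2078 without heart replicate 1, to 1960 without heart replicate 3 and to 2323 without 32-cell replicate 2.

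**Figure D1:**
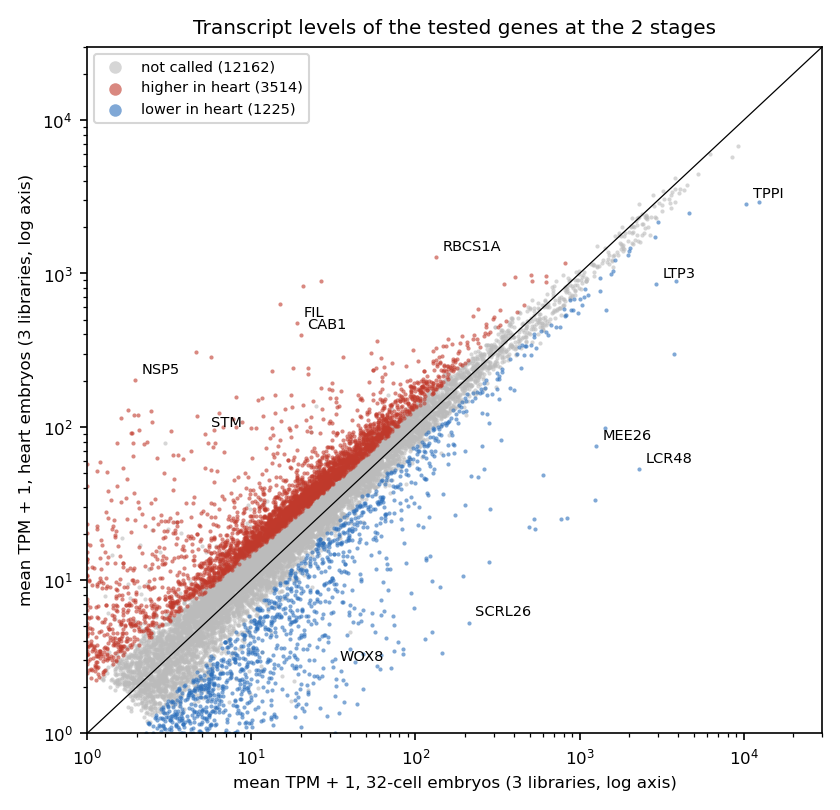
Mean TPM + 1 of the 16901 tested genes in 32-cell (horizontal, log axis) and heart embryos (vertical, log axis), each over 3 libraries; red genes were called higher in heart, blue genes lower, grey genes were not called, and the line marks equal levels. The labelled genes NSP5, FIL, STM and CAB1 lie far above the line, and LCR48, SCRL26, MEE26 and WOX8 far below it.

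Stages were well apart. Pearson's r over log2(TPM + 1) of the tested genes, which are not independent replicates, was 0.956 to 0.969 between 32-cell libraries, 0.963 to 0.980 between heart libraries and 0.853 to 0.916 across stages. Single libraries also stood apart. Genes at 0 numbered 5271 in heart replicate 1, 7365 and 6464 in the other heart libraries, and 7477, 7652 and 7534 in 32-cell. The top 10 genes took 9.31% of 32-cell replicate 2 against 6.06% and 5.94% in the other 32-cell libraries. The summed level of 24 seed coat markers was 382 TPM in 32-cell replicate 2 against 113 and 119 in the other 32-cell libraries and 106 to 115 in heart. The 17 heat shock and wounding genes summed to 639 TPM in 32-cell replicate 3 against 306 and 330. Plastid-encoded genes took 1.06% of heart replicate 1 against 0.431% and 0.674% in the other heart libraries. Of 13 endosperm markers 11 were below 1 TPM in all 6 libraries, MEA was listed at 0 in each, and the summed level was 26.5 to 58.6 TPM in 32-cell and 21.9 to 26.3 in heart. Of the embryo genes, LEC1 was at 313 to 529 TPM and PDF1 at 1674 to 2717 over the 6 libraries, which does not measure how pure the tissue was. A part of the named genes overlap another gene in the reference annotation, and strand use in the counting is not stated, so reads could be shared and their values are less certain: CRN, OFP14, CAB1, LHB1B2, RPL16B, NF-YB6, MP, REV, KAN1, AS1, GRF1, GRF3, AIL6, ERL1, APR2, OLEO2, WRKY2, GUN4, CRD1, CAC2, PDH-E1_BETA and CYCD1;1 and CYCD3;2 among the cyclins. In whole embryos, fewer cells of a type and less RNA per cell cannot be told apart.

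Of the shoot meristem and boundary genes, 8 of 14 tested were higher and 1 was lower under both scalings, with a median change of 1.19. Of those tested, 2 reached 1 TPM only in heart libraries and had to differ. STM (SHOOT MERISTEMLESS, AT1G62360), the homeodomain factor that keeps meristem cells undifferentiated, stood at 7.02, 1.501 and 4.11 TPM in the 32-cell libraries, at 38.4, 23.3 and 28.1 in globular and at 100.1, 78.1 and 89.4 in heart. It rose by 4.26 ± 0.35 (adjusted p = 2.1e-05). Every globular library lay between all 32-cell and all heart libraries. KNAT6 (AT1G23380), of the same homeodomain family, was at 35.1, 38.003 and 32.5 TPM and then at 83.2, 84.5 and 76.8, a rise of 1.19 ± 0.13 (adjusted p = 0.00018). Its globular libraries, at 73.3 to 85.9 TPM, had already reached the heart range.

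The CUP-SHAPED COTYLEDON genes, which set the boundary between the cotyledons, did not move as 1 group. CUC1 (AT3G15170) was at 43.6, 44.5 and 32.1 TPM in 32-cell and at 97.3, 124 and 109 in heart, a rise of 1.44 ± 0.16 (adjusted p = 0.00020). CUC2 (AT5G53950) was at 68.9, 115 and 108 TPM and then at 87.2, 77.2 and 79.2, and CUC3 (AT1G76420) at 41.1, 32.3 and 27.8 and then at 17.0, 34.4 and 21.4. Their libraries overlapped between stages and neither was called (adjusted p = 0.38 and 0.15). WUS (AT2G17950), the factor of the meristem's organizing centre, stayed low, at 1.17 to 3.25 TPM in 32-cell and 1.86 to 4.18 in heart, and was not called.

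Other members of the list act in stem cell control or partner STM. CLV1 (AT1G75820), the receptor kinase that limits stem cell number, rose from 1.64, 1.24 and 1.76 TPM to 12.0, 5.73 and 9.64, by 1.94 ± 0.30 (adjusted p = 0.0013). Its peptide ligand gene CLV3 (AT2G27250) was at 0 in every 32-cell library and at 2.91, 0.908 and 0.991 TPM in heart, below the filter. BLR (AT5G02030) and PNF (AT2G27990), BEL1-like partners of STM, were higher by 4.16 and by 2.39 ± 0.30 (adjusted p = 0.00038 for PNF). LSH4 (AT3G23290), a boundary gene, was listed at 0 in the 32-cell libraries and at 10.8, 6.89 and 11.1 TPM in heart. AIL7 (AT5G65510), an AINTEGUMENTA-LIKE factor, went the other way, from 30.0, 34.9 and 34.7 TPM to 17.61, 19.5 and 17.7 (-0.83 ± 0.15, adjusted p = 0.0038), while AIL6 (AT5G10510) rose by 1.19 ± 0.19 (adjusted p = 0.0018).

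**Figure D2:**
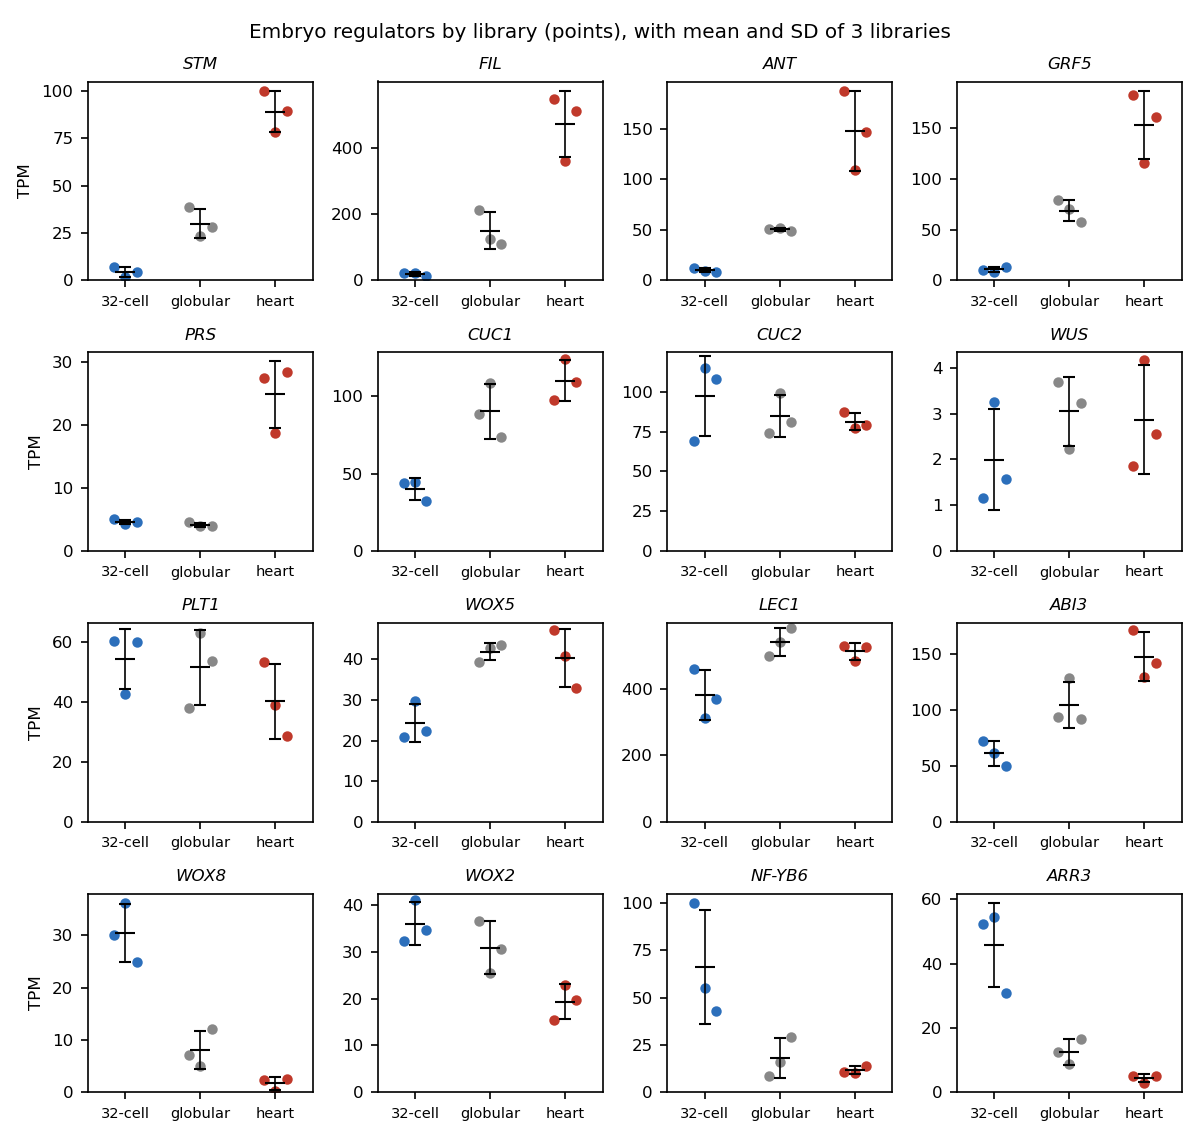
TPM of 16 regulators in each of 3 libraries of 32-cell (blue), globular (grey) and heart embryos (red), on linear axes from 0, with the mean and SD of the 3 libraries. STM, FIL, ANT and GRF5 climb through the globular stage, PRS is at 3.93 to 4.997 TPM until heart, CUC2, WUS and PLT1 overlap between stages, and WOX8, NF-YB6 and ARR3 fall.

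Cotyledon and lateral organ genes were mostly called higher: 18 of 22 tested members were higher and 1 was lower, with a median change of 1.28. Under median-ratio scaling 16 were higher and 1 lower. Of the tested members 3 reached 1 TPM only in heart libraries and had to differ. ANT (AINTEGUMENTA, AT4G37750), which prolongs organ growth, was at 12.3, 9.49 and 8.46 TPM in 32-cell, 50.3, 51.9 and 49.1 in globular and 188, 109 and 147 in heart, a rise of 3.73 ± 0.21 (adjusted p = 2.2e-06). GRF5 (GROWTH-REGULATING FACTOR 5, AT3G13960) ran beside it, at 10.5, 7.98 and 13.3 TPM, then 78.7, 69.8 and 57.7, then 182, 116 and 161, a rise of 3.73 ± 0.21 (adjusted p = 2.3e-06). In both, heart replicate 2 was the lowest heart library and still above every globular one. All 6 growth-regulating factors tested were higher, GRF4 by 2.37 ± 0.28 (adjusted p = 0.00029), GRF3 by 1.31 ± 0.14 (adjusted p = 0.00012), GRF1 by 0.98 ± 0.17 (adjusted p = 0.0027) and GRF2 by 0.70 ± 0.12 (adjusted p = 0.0022). GRF6, at 1.43 to 3.28 TPM in heart, was called at an adjusted p of 0.041, but not under median-ratio scaling (adjusted p = 0.078), nor without heart replicate 1 or 2 or 32-cell replicate 2 or 3 (adjusted p up to 0.12). Their coactivator AN3 (AT5G28640) rose by 1.25 ± 0.14 (adjusted p = 0.00017), from 147 to 171 TPM to 318 to 404.

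The globular level of some organ genes lay closer to 32-cell than to heart. PRS (PRESSED FLOWER or WOX3, AT2G28610), which acts at the organ margin, was at 4.997, 4.35 and 4.59 TPM in 32-cell and at 4.53, 3.93 and 3.96 in globular, and at 27.6, 18.8 and 28.4 in heart, a rise of 2.18 ± 0.22 (adjusted p = 8.4e-05). JAG (JAGGED, AT1G68480), which promotes blade growth, was listed at 0 in the 32-cell libraries and stood at 3.74, 1.41 and 0.746 TPM in globular and 23.1, 9.87 and 24.7 in heart. Its paralogue NUB (AT1G13400) was already at 3.80, 4.16 and 6.20 TPM in 32-cell and at 49.7, 48.9 and 54.2 in heart, a rise of 3.20 ± 0.20 (adjusted p = 4.1e-06). AS1 (Asymmetric Leaves 1, AT2G37630), which represses meristem genes in organs, rose by 2.59 ± 0.22 (adjusted p = 2.9e-05), while its partner AS2 (AT1G65620) was at 3.42 to 4.81 and 4.78 to 6.30 TPM and was not called (adjusted p = 0.24). Of the TCP factors, TCP24 rose by 2.87 ± 0.22 (adjusted p = 1.2e-05), TCP2 was higher by 2.19, and TCP3 and TCP4 were not called (adjusted p = 0.70 and 0.14).

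The DORNRÖSCHEN pair, AP2-type factors of the early apex and cotyledon, was called in opposite directions. DRNL (AT1G24590) was at 63.8, 107 and 71.2 TPM in 32-cell and at 142, 222 and 163 in heart, a rise of 1.13 ± 0.21 (adjusted p = 0.0042), with globular at 194 to 238 TPM. DRN (AT1G12980) was at 27.6, 44.2 and 43.5 TPM and then at 10.7, 31.1 and 14.1, a fall of -1.11 ± 0.33 (adjusted p = 0.032). Heart replicate 2 of DRN lay inside the 32-cell range. Its call was lost without heart replicate 1 or 3 or 32-cell replicate 2 or 3 (adjusted p up to 0.11).

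In the polarity list 7 of 15 tested members were higher and 1 was lower, with a median change of 0.61; under median-ratio scaling 3 were higher and 1 lower. Without heart replicate 3 the higher members were also 3. Among the called members, the YABBY genes FIL and YAB5, of the abaxial side, moved most. No other YABBY gene of the list was called. FIL (FILAMENTOUS FLOWER, AT2G45190) was at 21.0, 22.0 and 11.1 TPM in 32-cell, 213, 125 and 110.5 in globular and 546, 359 and 511 in heart, a rise of 4.67 ± 0.25 (adjusted p = 1.5e-06). YAB5 (AT2G26580) rose from 12.7, 13.1 and 12.1 TPM to 78.1, 88.5 and 95.0, by 2.69 ± 0.15 (adjusted p = 1.8e-06). YAB3 (AT4G00180), at 0 in every 32-cell library, reached 1.07 TPM in only 1 heart library.

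Among the adaxial HD-ZIP III factors calls were mixed. PHV (AT1G30490) rose by 1.21 ± 0.15 (adjusted p = 0.00030), from 34.7 to 42.9 TPM to 82.2 to 102. PHB (AT2G34710) was at 135, 164 and 114 TPM and then at 145, 161 and 154, and CNA (AT1G52150) at 34.6, 44.5 and 37.0 and then at 45.3, 36.0 and 35.3, and neither was called (adjusted p = 0.40 and 0.99). REV (AT5G60690) and the abaxial factors ARF3, KAN1 and ATS were higher by 0.66, 0.55, 0.64 and 0.86, but none was called under median-ratio scaling (adjusted p = 0.068 to 0.13). Without heart replicate 3 these 4 calls were lost (adjusted p up to 0.082); REV was also lost without heart replicate 1 or 32-cell replicate 1 or 3, KAN1 without heart replicate 2 or 32-cell replicate 1, and ATS without 32-cell replicate 2 or 3. ZPR3 (AT3G52770), a little zipper protein that inhibits HD-ZIP III factors, fell from 123, 188 and 129 TPM to 38.4, 97.8 and 56.5, by -1.25 ± 0.29 (adjusted p = 0.011).

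At the root pole 6 of 18 tested genes were higher and 1 was lower, and 5 and 3 under median-ratio scaling, with a median change of 0.22, close to that of all genes. The PLETHORA factors of this list, PLT1, PLT2 and BBM, which specify the root meristem, showed no called difference in the main test. PLT1 (AT3G20840) was at 60.5, 42.8 and 60.3 TPM in 32-cell and at 53.6, 39.1 and 28.6 in heart, PLT2 (AT1G51190) at 47.2, 25.8 and 34.4 and then at 42.5, 26.0 and 25.6, and BBM (AT5G17430) at 89.5, 70.2 and 103 and then at 92.5, 73.8 and 62.6. Their libraries overlapped between stages (adjusted p = 0.15, 0.60 and 0.44); PLT1 was called lower under median-ratio scaling, by -0.69 (adjusted p = 0.037). WOX5 (AT3G11260), of the quiescent centre, was higher by 0.72 ± 0.19 (adjusted p = 0.020), but not under median-ratio scaling (adjusted p = 0.10), nor without heart replicate 1 or 2 or 32-cell replicate 1 or 3 (adjusted p up to 0.068).

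The root pole list also holds ground tissue factors. MGP (MAGPIE, AT1G03840) and NUC (NUTCRACKER, AT5G44160), zinc finger proteins that act with the GRAS factors SHR and SCR, rose from 0.582 to 1.45 TPM to 11.2 to 17.9, by 2.97 ± 0.28, and from 0.0532 to 1.37 TPM to 7.199 to 11.2, by 2.73 ± 0.35 (adjusted p = 6.0e-05 and 0.00042). SCR (AT3G54220) itself rose by 0.81 ± 0.19 (adjusted p = 0.011), from 38.2 to 57.6 TPM to 73.5 to 102. SHR (AT4G37650), which moves from the vascular cells into the ground tissue, was at 20.7, 21.1 and 14.96 TPM and then at 22.7, 19.0 and 16.5 and was not called (adjusted p = 0.90). SCL3 and HSFB4 rose by 1.26 ± 0.25 and 1.29 ± 0.22 (adjusted p = 0.0058 and 0.0024). NTT (NO TRANSMITTING TRACT, AT3G57670), needed with its relatives for the root initials, fell by -1.33 ± 0.21 (adjusted p = 0.0017), from 10.6 to 14.1 TPM to 4.27 to 4.43.

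Of the vascular genes 6 of 15 tested were higher and 1 was lower, and 3 and 1 under median-ratio scaling. Without 32-cell replicate 2 the higher genes were 3. Of those tested, 2 reached 1 TPM only in heart libraries and 1 only in 32-cell libraries. MP (MONOPTEROS, AT1G19850), the auxin response factor upstream of embryo vasculature and root, was at 249.9, 185 and 235 TPM and then at 493, 306 and 317, higher by 0.71 ± 0.19 (adjusted p = 0.022). It was not called without 32-cell replicate 2 (adjusted p = 0.076) or under median-ratio scaling (adjusted p = 0.082). Its target TMO7 (AT1G74500), a small mobile bHLH protein, was listed at 0, 0 and 0.474 TPM in 32-cell and at 4.29, 5.64 and 4.07 in heart, while TMO5 (AT3G25710) overlapped between stages, at 29.7 to 65.8 and 31.8 to 40.3 TPM, and was not called (adjusted p = 0.78). LHW (AT2G27230), the partner of TMO5, rose by 0.93 ± 0.18 (adjusted p = 0.0049), and T5L1 (AT1G68810), a relative of TMO5, fell from 14.95, 17.3 and 23.4 TPM to 6.55, 4.31 and 3.35, by -1.78 ± 0.26 (adjusted p = 0.0010).

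Auxin genes were called in both directions, with 6 higher and 6 lower of 32 tested. The share of higher genes was near the 20.8% over all genes, and that of lower genes was above the 7.25% over all genes. Under median-ratio scaling 3 were higher and 9 lower, beside 9.67% and 11.2% over all genes. Without 32-cell replicate 1 the higher genes were 3, and without heart replicate 3 they were 4. PIN7 (AT1G23080), known for carrying auxin from the suspensor into the early embryo, fell from 10.002, 11.8 and 9.97 TPM to 2.19, 2.78 and 2.197, by -1.77 ± 0.23 (adjusted p = 0.00048). PIN6 (AT1G77110) was at 0.990, 0.322 and 0.215 TPM in 32-cell and at 23.8, 13.7 and 22.1 in heart. The biosynthesis gene YUC9 (AT1G04180) was at 7.07, 3.47 and 2.54 TPM in 32-cell and at 0, 0.126 and 0.0517 in heart.

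Of 19 cytokinin genes tested 3 were higher, 7 lower and 9 not called, with a median change of 0.16, and 2 were higher and 7 lower under median-ratio scaling. ARR3 (AT1G59940), a type-A response regulator that damps the signal, stood at 52.4, 54.4 and 30.8 TPM in 32-cell, 12.4, 8.73 and 16.7 in globular and 5.17, 2.95 and 5.01 in heart, a fall of -3.11 ± 0.27 (adjusted p = 2.9e-05). ARR5 (AT3G48100), of the same type, fell by -1.33 ± 0.28 (adjusted p = 0.0066), and CYP735A2 (AT1G67110), which makes trans-zeatin forms, by -2.11 ± 0.35 (adjusted p = 0.0020). The receptor gene AHK2 (AT5G35750) rose by 1.66 ± 0.27 (adjusted p = 0.0019), while AHK4 (AT2G01830) overlapped between stages and was not called (adjusted p = 0.15).

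In the zygote, early embryo and suspensor list 1 of 8 tested genes was higher and 3 were lower, with a median change of -0.75, and 0 and 4 under median-ratio scaling. WOX8 (AT5G45980), expressed in the basal lineage and the suspensor, fell through the 3 stages, from 30.2, 36.2 and 24.96 TPM to 7.15, 5.10 and 12.0 and to 2.34, 0.296 and 2.51, by -3.65 ± 0.36 (adjusted p = 8.5e-05). WOX2 (AT5G59340), its counterpart in the apical lineage, fell by -0.87 ± 0.18 (adjusted p = 0.0072), from 32.3, 41.0 and 34.6 TPM to 15.4, 22.9 and 19.7. WOX9 (AT2G33880) was at 38.2, 32.3 and 54.6 TPM and then at 44.6, 21.2 and 17.44, overlapped between stages and was not called (adjusted p = 0.14). The remaining calls did not hold: WRKY2 (AT5G56270) was lower at an adjusted p of 0.047 and not called without any 1 of the 6 libraries (adjusted p up to 0.12), and YDA (AT1G63700) was higher by 0.63 ± 0.16 (adjusted p = 0.016) but not without heart replicate 1 (adjusted p = 0.052).

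Among maturation regulators 5 of 13 tested were higher and 2 were lower, and 2 and 2 under median-ratio scaling. ABI3 (AT3G24650), a B3 factor of late embryogenesis, rose from 72.4, 61.2 and 49.9 TPM to 171, 129.6 and 141, by 1.26 ± 0.17 (adjusted p = 0.00054). FUS3 (AT3G26790), of the same family, was at 54.5, 45.2 and 39.5 TPM and then at 70.6, 70.6 and 73.7, higher by 0.63 ± 0.15 (adjusted p = 0.012), though not under median-ratio scaling (adjusted p = 0.089). LEC1 (AT1G21970), a CCAAT-binding subunit needed for embryo identity, was at 459, 313 and 370.0 TPM and then at 529, 482 and 526 and was not called (adjusted p = 0.052), nor was LEC2 (AT1G28300), at 22.6 to 30.4 and 21.4 to 24.4 TPM (adjusted p = 0.43). Some alternative fits called LEC1 higher, such as quantile normalization (adjusted p = 0.027) and the fit without 32-cell replicate 1 (adjusted p = 0.030). Median-ratio scaling did not (adjusted p = 0.37). NF-YB6 (LEC1-LIKE, AT5G47670), the closest relative of LEC1, fell from 100.1, 54.8 and 43.0 TPM to 10.6, 10.5 and 14.0, by -2.32 ± 0.27 (adjusted p = 0.00027). WRI1 (AT3G54320), the activator of fatty acid synthesis genes, was higher by 0.70 ± 0.19 (adjusted p = 0.022), but not under median-ratio scaling (adjusted p = 0.088) or without heart replicate 1 or 3 or 32-cell replicate 2 (adjusted p up to 0.070). Few storage protein genes were measurable: 15 of 17 list members did not pass the filter, and OLEO2 (AT5G40420), an oleosin of oil bodies, was listed at 0 in 32-cell and at 3.36, 2.54 and 4.36 TPM in heart.

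Fatty acid and oil synthesis genes were higher in 21 of 30 tested cases and lower in 0, with a median change of 0.85, and 18 and 0 under median-ratio scaling. FAB1 (AT1G74960), the condensing enzyme that extends the acyl chain in the plastid, was at 79.0, 63.2 and 73.3 TPM in 32-cell and at 237, 149 and 187 in heart, a rise of 1.38 ± 0.17 (adjusted p = 0.00040). CAC2 (AT5G35360), the biotin carboxylase subunit of plastid acetyl-CoA carboxylase, rose by 1.29 ± 0.20 (adjusted p = 0.0016), and the plastid pyruvate dehydrogenase subunit PDH-E1_BETA (AT1G30120) by 1.38 ± 0.19 (adjusted p = 0.00067). The acyl carrier proteins, which hold the growing chain, differed among themselves: ACP4 (AT4G25050) rose by 1.44 ± 0.16 (adjusted p = 0.00020), from 28.6 to 36.2 TPM to 72.3 to 101, and ACP3 (AT1G54630), at 416 to 465 and 402 to 509.8 TPM, was not called (adjusted p = 0.80).

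All 49 tested nuclear genes of the light reactions were higher under both scalings, with changes from 1.02 to 4.37 and a median of 2.53; 4 of them reached 1 TPM only in heart libraries, without heart replicate 3 the count was 47, and with all 18 libraries in the fit 44. Their summed level was 904, 704 and 959 TPM in 32-cell, 2451, 2669.6 and 2334 in globular and 5047, 4964 and 5582 in heart. LHCA3 (AT1G61520), an antenna protein of photosystem I, was at 6.24, 8.30 and 6.76 TPM, then 41.0, 66.7 and 42.7, then 181, 124 and 158, a rise of 4.25 ± 0.18 (adjusted p = 4.9e-07). PSAL (AT4G12800), a photosystem I subunit, rose by 4.37 ± 0.30 (adjusted p = 7.4e-06). The light-harvesting genes CAB1 (AT1G29930) and LHB1B2 (AT2G34420) rose by 4.35 ± 0.22 and 4.12 ± 0.16 (adjusted p = 1.4e-06 and 3.0e-07), and each has near-identical copies between which reads could be split, so the values of single copies are uncertain.

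The carbon-fixing and pigment pathways followed. Of the Rubisco and Calvin cycle genes 13 of 15 tested were higher and 0 lower, with a median change of 2.07, and of the chlorophyll synthesis genes 18 of 20 and 0, with a median of 1.17 (13 and 16 higher under median-ratio scaling). RBCS1A (AT1G67090), a small subunit of Rubisco, was at 144, 76.5 and 179 TPM in 32-cell, 502, 519 and 483 in globular and 1218, 1153 and 1479 in heart, a rise of 3.34 ± 0.26 (adjusted p = 1.6e-05). FBA2 and GAPA-2, Calvin cycle enzymes, rose by 2.94 ± 0.22 and 2.87 ± 0.21 (adjusted p = 1.2e-05 and 1.1e-05), while CP12-1 (AT2G47400), a regulator of the cycle, overlapped between stages and was not called (adjusted p = 0.12). GLK1 (AT2G20570), a transcription factor of chloroplast development, rose from 2.57, 1.71 and 2.36 TPM to 27.5, 19.8 and 25.7, by 2.98 ± 0.23 (adjusted p = 1.4e-05), and GLK2 (AT5G44190), at 1.38 to 2.296 and 2.92 to 3.63 TPM, was not called (adjusted p = 0.12). GUN4 (AT3G59400) and CRD1 (AT3G56940), of chlorophyll synthesis, rose by 2.63 ± 0.22 and 2.77 ± 0.19 (adjusted p = 2.3e-05 and 6.5e-06).

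**Figure D3:**
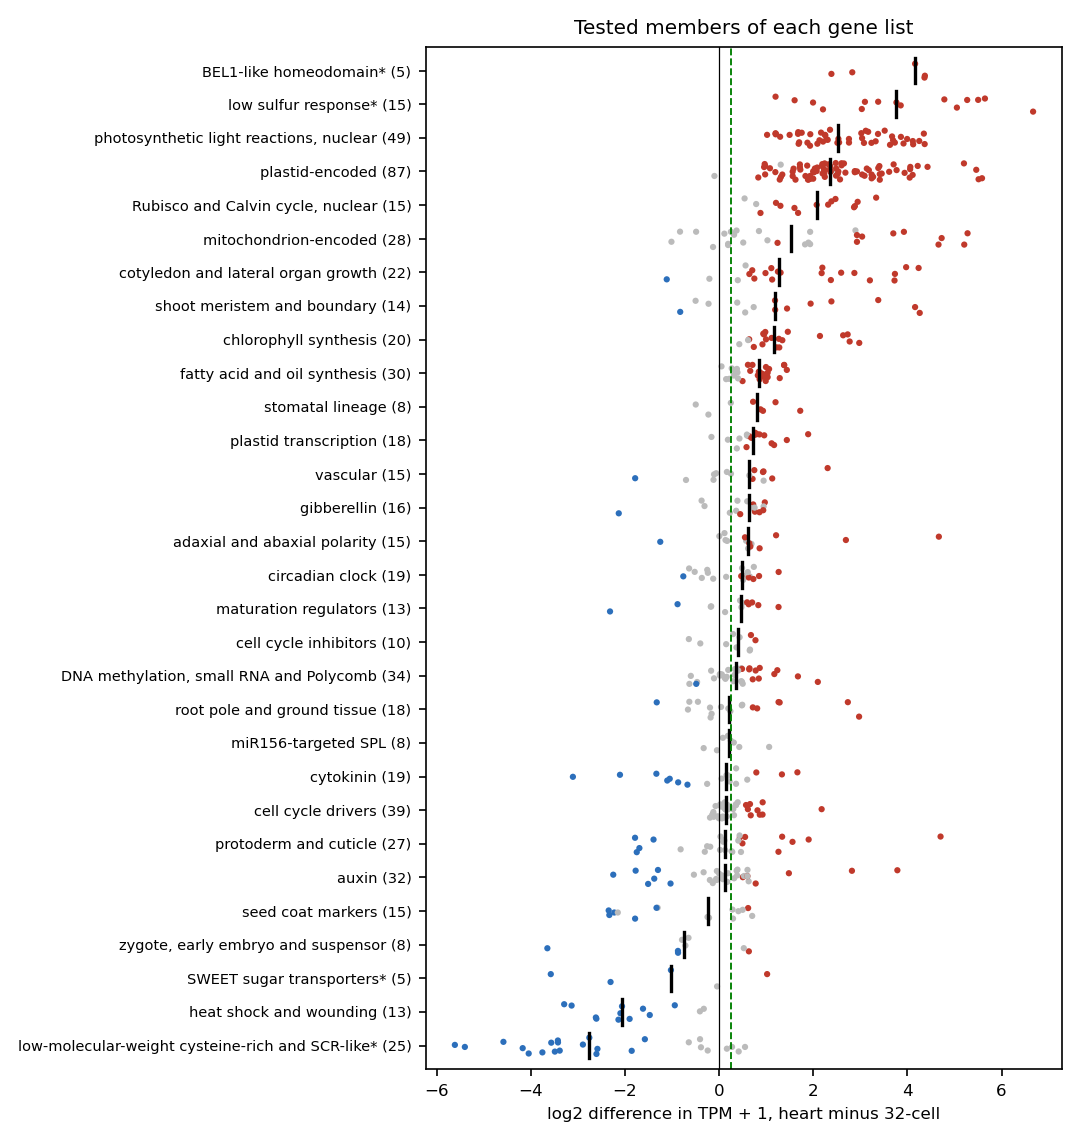
Log2 difference in TPM + 1, heart minus 32-cell, of every tested member of each gene list with 5 or more tested members. Red points were called higher, blue lower and grey not called. Black bars are list medians, the dashed line is the median of all genes at 0.25, and numbers in brackets are tested members. An asterisk marks lists added after values were seen, and the other lists were chosen with earlier results of these data known. All light reaction members lie above 1, and the cysteine-rich and heat shock lists have the lowest medians.

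Plastid-encoded genes were higher in 84 of 87 tested cases and lower in 0, with a median change of 2.36, and 73 and 0 under median-ratio scaling; 17 of them reached 1 TPM only in heart libraries. How far the poly(A) capture recovered organelle transcripts is not stated, and several organelle genes carry identical values, so these are shares of what was captured. Their summed level was 1902, 1558 and 2409 TPM in 32-cell, 5674, 4325 and 6019 in globular and 10554, 4313 and 6742 in heart. Heart replicate 1 was the highest, and heart replicate 2 lay below all globular libraries. Without heart replicate 1 the higher genes were 60. ATCG00600 was at 0 in each of the 32-cell libraries and at 95.1, 19.6 and 54.8 TPM in heart. Among mitochondrion-encoded genes 10 of 28 tested were higher and 0 lower, and 10 and 1 under median-ratio scaling, while without heart replicate 2 they were 13 and 3 and without heart replicate 1 the median change went from 1.53 to 0.676; the called ones with the largest change were far highest in heart replicate 1, such as ATMG01070 at 292, 18.8 and 27.5 TPM. Nuclear genes of plastid transcription were higher in 12 of 18 tested cases and lower in 0, but in 7 under median-ratio scaling and in 8 without heart replicate 3. SIG1 (AT1G64860), a sigma factor of the plastid RNA polymerase, rose by 1.17 ± 0.26 (adjusted p = 0.0099).

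Of the cell cycle drivers 9 of 39 tested were higher and 0 lower, with a median change of 0.14, below that of all genes, and a share of higher genes near that over all genes, and 5 and 1 under median-ratio scaling; without heart replicate 1 the higher genes were 6. The called genes included subunits of the MCM helicase that opens DNA for replication, with MCM2, MCM5 and MCM6 higher by 0.92 ± 0.19, 0.86 ± 0.15 and 0.92 ± 0.18 (adjusted p = 0.0070, 0.0022 and 0.0054). PCNA1 (AT1G07370), the sliding clamp, was at 259.9, 258 and 269.8 TPM in 32-cell and at 322, 268 and 299 in heart, overlapped and was not called (adjusted p = 0.31). CYCD1;1 (AT1G70210), a G1 cyclin, moved most, from 2.54, 2.75 and 4.34 TPM to 19.6, 17.2 and 16.5, by 2.18 ± 0.23 (adjusted p = 0.00014). CYCD3;2 (AT5G67260), of the same class and at 302 to 426 and 379.8 to 402 TPM, was not called (adjusted p = 0.40).

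In the protoderm and cuticle list 8 of 27 tested were higher and 4 lower, beside 20.8% and 7.25% over all genes. Under median-ratio scaling 5 were higher and 5 lower, beside 9.67% and 11.2% over all genes. The higher genes were 5 without any 1 heart library and without 32-cell replicate 2. PDF1 (AT2G42840), a marker of the outer layer, was at 2717, 1674 and 2242 TPM and then at 2264, 2182 and 2145 and was not called (adjusted p = 0.95). LTP3 (AT5G59320), a lipid transfer protein with a close tandem relative, fell from 3497, 2526 and 2736 TPM to 723, 1023 and 793, by -1.79 ± 0.18 (adjusted p = 9.1e-05). LACS1 (AT2G47240), which activates long-chain fatty acids for wax and cutin, rose from 0.314, 1.36 and 0.564 TPM to 58.5, 29.5 and 46.5, by 4.70 ± 0.31 (adjusted p = 5.4e-06). HDG1 (AT3G61150), a homeodomain factor of the epidermis, rose by 1.90 ± 0.34 (adjusted p = 0.0029), and GPAT4 (AT1G01610), of cutin synthesis, fell by -1.75 ± 0.25 (adjusted p = 0.00085).

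Of the stomatal lineage genes 5 of 8 tested were higher and 0 lower under both scalings. They were the receptor kinases ER (AT2G26330), ERL1 and ERL2, by 1.72 ± 0.16, 0.72 ± 0.13 and 0.88 ± 0.15 (adjusted p = 6.0e-05, 0.0031 and 0.0028), and the bHLH factors ICE1 and SCRM2, by 0.93 ± 0.17 and 1.20 ± 0.17 (adjusted p = 0.0038 and 0.00069). All of these also act outside the stomatal lineage. The lineage's defining factors were near or at 0: SPCH (AT5G53210) was listed at 0 in all 6 libraries, and MUTE and FAMA did not exceed 0.344 TPM in any of them.

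The genes with the largest rises that have a symbol and 10 TPM or more in heart included 6 that are known from the response to low sulfur. NSP5 (AT5G48180), a nitrile-specifier protein of glucosinolate breakdown, was at 1.43, 0.874 and 0.585 TPM in 32-cell, 61.0, 90.2 and 24.01 in globular and 244, 142 and 217 in heart, a rise of 6.67 ± 0.24 (adjusted p = 2.7e-07). ATSDI1 (SULFUR DEFICIENCY-INDUCED 1, AT5G48850), which lowers glucosinolate synthesis, was at 4.97, 5.31 and 3.81 TPM, then 138, 154 and 80.5, then 254, 272 and 327, a rise of 5.65 ± 0.17 (adjusted p = 7.8e-08). BGLU28 (AT2G44460), a beta-glucosidase of the same response, was higher by 5.50, and LSU1 (RESPONSE TO LOW SULFUR 1, AT3G49580) by 5.27. MSRB5 (AT4G04830), a methionine sulfoxide reductase, rose by 5.05 ± 0.26 (adjusted p = 1.5e-06), and CYSD2 (AT5G28020), a cysteine synthase, was higher by 4.78. In each of these genes every heart library lay above every 32-cell library by more than 10-fold. They were picked for large rises without overlap between the stages, so this separation is a description.

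A list of 19 such genes was therefore drawn up, after values were seen and with these rises as its reason, so its counts are a description. All 15 tested members were higher under both scalings and without any 1 of the 6 libraries, with a median change of 3.77. With all 18 libraries in the fit 14 were higher. Of the tested members 4 reached 1 TPM only in heart libraries. The summed level was 282, 151 and 147 TPM in 32-cell, 683, 947 and 575 in globular and 1661, 1411 and 1646 in heart. Members outside the naming rule, chosen after their values were seen, were the sulfate transporter SULTR1;2 (AT1G78000), at 12.3, 4.32 and 10.2 and then 119, 81.6 and 89.5 TPM, and APR2 (AT1G62180), an adenylylsulfate reductase of sulfate assimilation, at 91.5, 32.9 and 44.2 and then 274, 211 and 238 TPM. They rose by 3.38 ± 0.30 and 2.21 ± 0.30 (adjusted p = 4.3e-05 and 0.00060). SULTR1;1 and LSU4 did not pass the filter.

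Other genes among the largest rises were BCAT-1 (AT1G10060), a mitochondrial branched-chain aminotransferase, at 0.463, 0.266 and 0.166 TPM in 32-cell and 29.1, 16.1 and 35.4 in heart, and the BEL1-like homeodomain genes BLH6 (AT4G34610) and BLH11 (AT1G75430), higher by 4.36 ± 0.32 and 4.37 ± 0.30 (adjusted p = 1.2e-05 and 6.9e-06). In TPM, rather than in fold, FSD1 (AT4G25100), an iron superoxide dismutase, was among the 5 largest rises, from 589.5, 393 and 549 to 961, 891 and 813 (0.82 ± 0.17, adjusted p = 0.0061). CRN (CORYNE, AT5G13290) was also among them, at 15.1, 18.17 and 8.41 TPM in 32-cell and at 1700.3, 114 and 87.5 in heart. Heart replicate 1 set that value: the change was 4.18 ± 0.87 with it (adjusted p = 0.0068) and 2.82 without it (adjusted p = 0.00037).

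**Figure D4:**
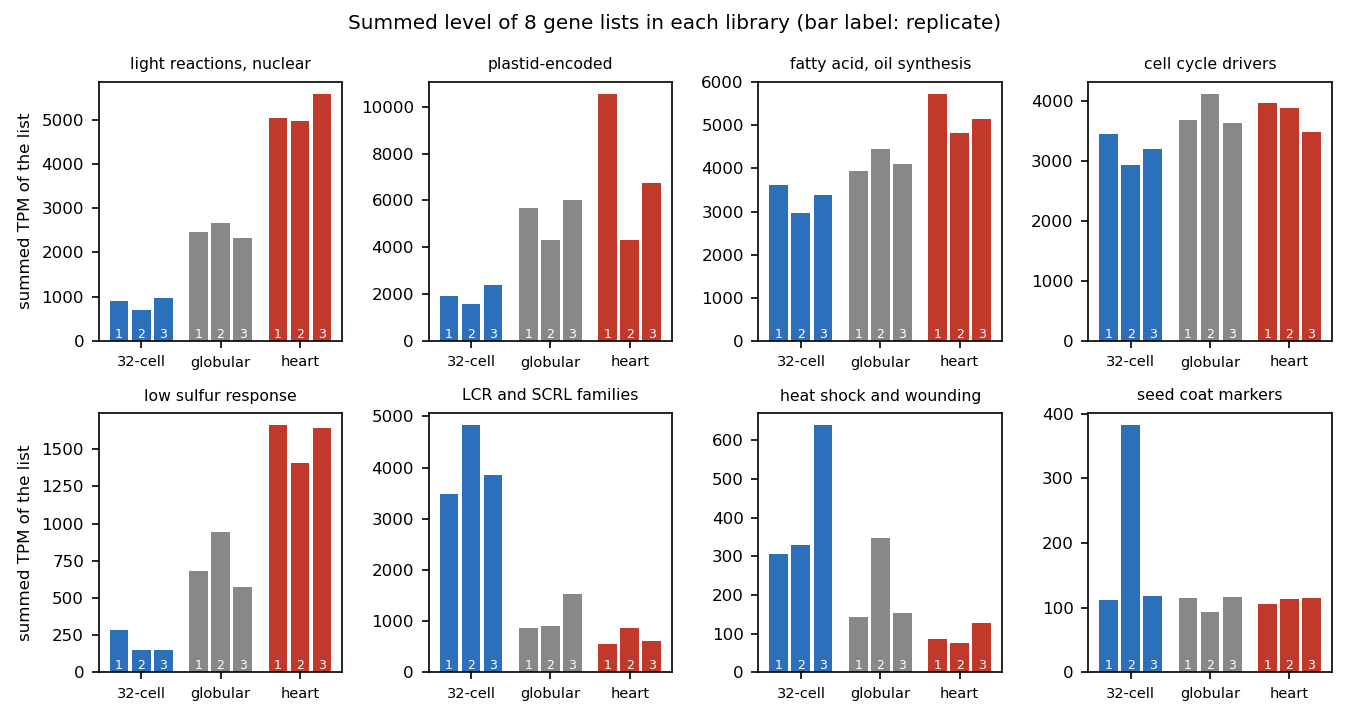
Summed TPM of 8 gene lists in each library of 32-cell (blue), globular (grey) and heart embryos (red), with the replicate number at the foot of each bar. Light reaction and low sulfur sums are higher in every heart library than in every globular one, LCR and SCRL sums are highest in the 32-cell libraries, and 32-cell replicate 3 for heat shock, 32-cell replicate 2 for seed coat and heart replicate 1 for plastid-encoded genes stand out.

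Small secreted proteins led the falls. LCR48 (AT3G48231), of the low-molecular-weight cysteine-rich family, whose members resemble defensins, was at 1987, 2856 and 2083 TPM in 32-cell, 158, 530.4 and 1084 in globular and 74.6, 59.4 and 21.0 in heart, a fall of -5.62 ± 0.37 (adjusted p = 5.7e-06). SCRL26 (AT4G22105), of the related SCR-like family, named after a pollen ligand of self-incompatibility, fell from 134, 243 and 257 TPM to 6.74, 4.44 and 1.66, by -5.40 ± 0.36 (adjusted p = 6.4e-06), and LCR68 (AT2G02130) from 575, 446 and 459 to 32.3, 11.6 and 19.4, by -4.58 ± 0.28 (adjusted p = 4.1e-06). LCR35 and SCRL10 fell by -4.17 ± 0.51 and -4.05 ± 0.46 (adjusted p = 0.00031 and 0.00020). The globular libraries of LCR48 and SCRL26 spread widely, with replicate 1 lowest and replicate 3 highest in both. Of all 107 genes with such symbols, a set drawn up after values were seen, 25 were tested, 17 were lower and 0 higher under both scalings, with a median change of -2.76; 4 of the 25 reached 1 TPM only in 32-cell libraries. Members of these families can share reads, so single values are uncertain.

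The other largest falls covered proteins of varied kinds. RALFL18 (AT2G33130), a RALF-like peptide, was at 16.5, 31.5 and 52.4 TPM in 32-cell and at 0.870, 0.215 and 0 in heart, and the change of TI1 (AT2G43510), a trypsin inhibitor, was -4.17. TLP-3 (AT1G75030), a thaumatin-like protein, and PAP20 (AT3G52780), a purple acid phosphatase, fell by -4.07 ± 0.40 and -4.54 ± 0.38 (adjusted p = 7.8e-05 and 2.4e-05). MEE26 (AT2G34870), named for a maternal effect on embryo arrest, was at 1562, 1321 and 914 TPM in 32-cell, 295, 194 and 544 in globular and 83.1, 56.6 and 81.2 in heart, a fall of -4.07 ± 0.21 (adjusted p = 1.4e-06). COPT2 (AT3G46900), a copper transporter, GAD (AT5G17330), a glutamate decarboxylase, and MLP28 (AT1G70830), an MLP-like protein, fell by -4.05 ± 0.29, -3.92 ± 0.30 and -3.82 ± 0.24 (adjusted p = 9.4e-06, 1.2e-05 and 4.9e-06), and the change of CYP81D2 (AT4G37360), a cytochrome P450, was -4.17. OFP14 (AT1G79960) was at 26.6, 26.3 and 41.7 TPM in 32-cell and listed at 0 in all globular and heart libraries.

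TPPI (AT5G10100), a trehalose-phosphate phosphatase, had 1 of the 5 largest falls in TPM, from 6889.9, 17540.1 and 6759.9 to 3253, 2901 and 2367 (-1.73 ± 0.33, adjusted p = 0.0043). Its highest library was 32-cell replicate 2, and without it the fall was -1.28 (adjusted p = 0.0018). RPL16B (AT4G18730), a ribosomal protein gene, was also among the 5, at 1951 to 2113 TPM and then 1192 to 1559.7, but its call (-0.53 ± 0.15, adjusted p = 0.024) was lost without heart replicate 3 or 32-cell replicate 1 or 3 (adjusted p up to 0.073).

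Markers of tissue around the embryo and of stress were also measured. Of the 15 seed coat markers tested 5 were lower and 1 higher, and 5 and 0 under median-ratio scaling. TT3 (AT5G42800) and BAN (AT1G61720), enzymes of proanthocyanidin synthesis in the seed coat, were at 8.11, 65.0 and 6.28 and at 4.43, 44.4 and 6.19 TPM in 32-cell and at 1.18 to 4.51 and 0.973 to 1.76 in heart. Their changes of -2.35 ± 0.70 and -2.33 ± 0.64 (adjusted p = 0.032 and 0.023) became -1.34 and -1.38 without 32-cell replicate 2 (adjusted p = 0.046 and 0.017). TT3 was not called without heart replicate 1 or 3 (adjusted p up to 0.11), nor BAN without heart replicate 1 or 2 (adjusted p up to 0.058). The lower markers were 0 without heart replicate 1, 1 without heart replicate 3, 3 without heart replicate 2 or 32-cell replicate 2, and 7 without 32-cell replicate 3, and the higher one, GATL5, named after its values were seen, was lost without heart replicate 1 or 3 or 32-cell replicate 2 or 3. Of the 24 listed seed coat markers 9 did not pass the filter, among them TT10 and MUM2, which stayed under 0.5 TPM in all 6 libraries. The part of seed coat RNA in the other falls was not tested.

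Of the heat shock and wounding genes 11 of 13 tested were lower and 0 higher, with a median change of -2.06, and 12 and 0 under median-ratio scaling. HSP17.6A (AT5G12030), a small chaperone, was at 25.8, 34.4 and 101 TPM in 32-cell, 9.18, 53.5 and 10.3 in globular and 4.55, 1.57 and 6.18 in heart, a fall of -3.29 ± 0.49 (adjusted p = 0.0010). HSP70 (AT3G12580), a larger chaperone, fell from 48.6, 34.5 and 104 TPM to 9.31, 5.18 and 11.5, by -2.62 ± 0.37 (adjusted p = 0.00085). In both, 32-cell replicate 3 was the highest library, and without it the falls were -2.72 and -2.18 (adjusted p = 0.0022 and 0.0018). The list summed to 306 to 639 TPM in 32-cell and 76.5 to 128 in heart, and its part in the other falls was not tested. Of the endosperm markers, SUC5 (AT1G71890), a sucrose transporter, fell from 24.1, 10.6 and 35.1 TPM to 3.11, 1.47 and 1.43, by -2.91 ± 0.39 (adjusted p = 0.00062), and EDE1 (AT2G44190) overlapped between stages and was not called (adjusted p = 0.99); the part of endosperm RNA was not tested.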

How the data were processed

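RNA was measured in 18 libraries of hand-isolated Arabidopsis embryos, 3 at each of 6 stages; the 3 heart and 3 32-cell libraries entered the test. Per the labels' protocols, mRNA was captured on oligo(dT) beads and amplified as cDNA. Per the submitters' processing notes, Trim Galore 0.6.6, kallisto 0.44.0 and the TAIR10 build were used, and the authors deposited the values as gene-level TPM. The step from transcripts to genes is not given in the sources used here, and the depth is unknown, so no counting interval could be made. Of 27564 gene IDs, 27445 matched the RefSeq gene table of the reference assembly TAIR10.1, used for names and overlaps only.

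Tested genes had 1 TPM or more in at least 3 of the 6 libraries. They were fitted on log2(TPM + 1) with limma 3.58.1 (R 4.3.3, moderated test with trend, two-sided, Benjamini-Hochberg adjustment over 16901 genes), which was first tested on simulated data. Genes named in the text were the 15 largest rises and 15 largest falls (called, with a symbol, at 10 TPM or above on average in 1 stage, and with stages that did not overlap), the 5 largest TPM differences each way, up to 4 called and 2 uncalled genes of each list, and any gene of the regulator lists. The gene lists and their members were chosen with earlier results of these data known; the low sulfur, LCR and SCRL, SWEET and BEL1-like lists were added after values were seen. Same-numbered replicates deviated together across stages weakly or not at all (r of 0.0768, 0.117 and -0.00182). With 3 libraries per stage this cannot show whether equal numbers shared a batch, and the main fit left samples unpaired. Alternatives changed the pseudocount, filter, scaling, libraries in the fit, weights and moderation, and left out each library. Promoter motifs were planned and not analysed here, and 1 named gene is not reported here.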

Additional observations from a re-analysis of the deposited data

How the results depend on the processing

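The number of genes higher in heart, 3514, was 1635 with median-ratio scaling, 1523 with quantile normalization, 969 with all 18 libraries in the fit, 1150 when at least 2-fold was asked, and 1960 to 2942 when 1 library was left out. The number lower, 1225, was 1885 with median-ratio scaling, 1562 with quantile normalization, 729 with all 18 libraries, and 907 to 1078 when 1 library was left out. The 362 calls over the fixed lists were 233 with all 18 libraries. The median change, 0.25, was 0.19 with a pseudocount of 5, 0.13 with no filter, 0.0223 with median-ratio scaling and 0.0330 with quantile normalization. Of 159 tested genes named in the text 134 were called, 100 of them under each alternative fit that tested them, and 0 changed direction while called. These tallies include genes tested through 1 stage alone, such as YUC9 and BCAT-1, which had to differ. Of the calls, 28 were lost with all 18 libraries, 27 when at least 2-fold was asked, 12 with quantile normalization, 11 with median-ratio scaling, 10 with no filter and 5 to 10 when 1 library was left out. The other alternatives run kept these counts within 1.5 times, and the cause of the differences was not tested. The pairing check could not decide whether to block by replicate number. With that block 4085 genes were higher and 1378 lower. In their deviations, 32-cell replicates 1 and 2 correlated best with the heart library of their own number (r of 0.0768 and 0.117), and replicate 3 with heart replicate 1 (0.0928). TPM carry no depth, so the precision of low values is limited to what 3 libraries show.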

Other observations

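Genes of DNA methylation, small RNA and Polycomb pathways were higher in 11 of 34 tested cases and lower in 1, with a median change of 0.36. Over all genes 20.8% were higher and 7.25% lower, with a median of 0.25. With median-ratio scaling 3 were higher, near the 9.67% over all genes, and 1 lower, beside 11.2%. Without heart replicate 1, 5 were higher. The summed level of that library over the list was 3034 TPM, against 2066 and 2173 in the other heart libraries. AGO4, an Argonaute of RNA-directed DNA methylation, was at 269, 224 and 230.5 TPM in 32-cell and at 797, 465 and 494 in heart, a rise of 1.24 ± 0.20 (limma, adjusted p = 0.0016). ROS1, a DNA demethylase, and CMT2, a methyltransferase of CHH sites, rose by 2.097 ± 0.28 and 1.67 ± 0.20 (limma, adjusted p = 0.00055 and 0.00033).

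Of 19 circadian clock genes tested 5 were higher and 1 lower, near the shares of 20.8% and 7.25% over all genes. With median-ratio scaling 3 were higher and 2 lower, beside 9.67% and 11.2% over all genes. The higher genes were 3 without any 1 heart library and without 32-cell replicate 1. LHY and CCA1, morning factors of the clock, rose by 1.26 ± 0.20 and 0.85 ± 0.19 (limma, adjusted p = 0.0014 and 0.0098), and GRP7, an RNA-binding protein under clock control, fell from 954 to 1082 TPM to 539 to 783, by -0.76 ± 0.17 (limma, adjusted p = 0.0083). The hour of collection is not given in the labels used here.

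Gibberellin genes were higher in 6 of 16 tested cases and lower in 1, beside 20.8% and 7.25% over all genes. Under median-ratio scaling 2 were higher and 2 lower, near the 9.67% and 11.2% over all genes. Without heart replicate 3 the higher genes were 3. GASA1, a gibberellin-regulated peptide gene, fell by -2.13 ± 0.44 (limma, adjusted p = 0.0062). Of 10 cell cycle inhibitors tested 2 were higher and 0 lower, near the share of 20.8% over all genes; 1 was higher with median-ratio scaling and without any 1 heart library or 32-cell replicate 3, and 0 with all 18 libraries in the fit. Of 8 tested SPL genes targeted by miR156, limma called 0 and 1 had an unadjusted p under 0.05, SPL13B, with a change of 1.06 ± 0.39 (adjusted p = 0.067); 1 was called with library weights, 1 with the globular libraries in the fit and up to 2 when 1 library was left out. Of 12 BEL1-like homeodomain genes, a list drawn up after values were seen, all 5 tested were higher under both scalings and without any 1 library. Of these 1, BLR, reached 1 TPM only in heart libraries, so the count is a description. Among 5 tested SWEET sugar transporters 1 was higher and 3 lower under both scalings: SWEET12, chosen after its values were seen, fell from 192, 114 and 67.8 TPM to 11.0, 6.21 and 9.42, by -3.58 ± 0.33 (limma, adjusted p = 4.8e-05).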
